A study of Mus musculus with 11 samples.

Results

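Transforming growth factor beta (TGF-beta) signalling in wounded skin was followed through 10 genes: the ligands Tgfb1, Tgfb2 and Tgfb3, the receptors Tgfbr1 and Tgfbr2, the signal carrier Smad3, the feedback genes Smad7, Pmepa1 and Skil, and the target gene Tgfbi. They are 10 of the 24421 genes listed in the count data. They were chosen by their place in the pathway, with earlier results of these libraries known, among them the difference of Pmepa1 between wounded and unwounded WT keratinocytes. Values from that contrast are therefore given as a description.

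TGF-beta ligands are secreted in a latent form and, once released, bind a type II receptor that recruits and phosphorylates a type I receptor. The activated receptor phosphorylates SMAD2 and SMAD3, which enter the nucleus with SMAD4 and switch target genes on or off, among them inhibitors of the pathway itself. In skin the pathway is known for holding back keratinocyte proliferation and for its part in keratinocyte migration, matrix deposition and wound repair.

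The mice were on the C57BL/6J background (strain label C57BL/6), 8 weeks old, males and females, and carried 4 mm punch wounds on the back. The Grhl3-cKO mice carried Krt14-Cre and floxed alleles of Grhl3, a transcription factor of the epidermis, and the WT littermates carried Krt14-Cre with WT Grhl3, so both genotypes expressed Cre in basal keratinocytes and their descendants. Keratinocytes were taken on day 3 after wounding from a 1 mm margin around the wound, or from distant unwounded skin. They were released with trypsin and sorted for CD49F, with cells bearing CD45, CD31 or TER119 removed. RNA sequencing gave 2 WT unwounded, 2 WT wounded, 1 Grhl3-cKO unwounded and 2 Grhl3-cKO wounded libraries. ATAC-seq, which maps open chromatin, gave 1 library per condition, each pooled from 4 wounds of 2 mice. The labels do not say whether RNA replicates came from separate animals, so p-values measure the spread between these libraries, which may be technical.

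Counts on genes came to 15488699 and 16807451 in the WT unwounded libraries, 16653948 and 15418631 in the WT wounded libraries, 13497283 in the Grhl3-cKO unwounded library and 15223569 and 14279568 in the Grhl3-cKO wounded libraries. Levels are given in CPM, the counts of a gene divided by the library's counts on genes and scaled to a fixed total, where 3 counts correspond to 0.179 to 0.222 CPM, a floor that covers counting error only. The lowest count of any of the 10 genes in any library was 66, for Tgfb2, and all 10 passed the filter on low counts that left 14045 genes for testing. Replicates of the same group correlated over genes at r = 0.953, 0.946 and 0.957 and differed by far more than counting noise.

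Grhl3 itself had 1893 and 1398 counts in WT unwounded, 1831 and 1388 in WT wounded, 1029 in Grhl3-cKO unwounded and 1765 and 1491 in Grhl3-cKO wounded libraries. The libraries labelled Grhl3-cKO wounded lay within the range of the WT libraries. Counts over the whole gene do not separate the floxed exons from the rest, so the genotype of these libraries is known from the label alone. For the mice, the paper reports a check of the deletion by quantitative PCR between the loxP sites and by immunostaining of GRHL3 in the wound front. The keratinocyte markers Krt5 (10933 to 15372 CPM) and Krt14 (12190 to 19442 CPM) were high in every library.

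The library labelled Grhl3-cKO unwounded stood apart. It had 14854 counts of Xist, which is transcribed from the inactive X chromosome, and 0 counts of the Y-linked genes Ddx3y, Eif2s3y, Kdm5d and Uty. Xist had 3 to 32 counts elsewhere, and each of these Y-linked genes had 320 or more in all other 6 libraries. Sex and genotype cannot be told apart in that library, which has no replicate, and its labels disagree on its replicate number. Fold changes of pathway genes in the fit over both genotypes are given with and without it. Those of keratinocyte markers are given beside the WT wounding contrast. The Grhl3-cKO wound response has no value without that library.

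Wounding of WT skin was accompanied by higher levels of 4 of the 10 genes in both wounded libraries than in both unwounded ones: Pmepa1, Tgfbi, Skil and Tgfb2, beside 15.2% of all genes tested. Pmepa1 stood apart in size, with a log2 fold change of 1.40 (SE 0.20), against 0.58 (SE 0.18) for Tgfbi, 0.45 (SE 0.16) for Skil and 0.32 (SE 0.34) for Tgfb2. The receptors, Smad3 and Smad7 stayed between -0.10 and 0.08 on the same scale. In these bulk samples, fewer cells of a type and less RNA per cell cannot be told apart.

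Among the ligands, Tgfb1, a growth inhibitor of keratinocytes and a recruiter of fibroblasts and leukocytes, was at 52.8 and 34.3 CPM in WT unwounded, 43.0 and 62.1 in WT wounded, 45.0 in Grhl3-cKO unwounded and 47.7 and 25.4 in Grhl3-cKO wounded libraries. Its groups overlapped throughout, and the highest and lowest libraries were both wounded. Tgfb2, a ligand that needs the co-receptor betaglycan to bind its type II receptor well, was at 12.6 and 14.6 CPM in WT unwounded, 17.7 and 15.8 in WT wounded, 24.7 in Grhl3-cKO unwounded and 8.54 and 4.62 in Grhl3-cKO wounded libraries. Both Grhl3-cKO wounded libraries lay below the other 5 libraries and the Grhl3-cKO unwounded library lay above all others. Tgfb3, the ligand known for its part in palate fusion, was at 19.0 and 21.1 CPM in WT unwounded, 20.1 and 11.9 in WT wounded, 9.11 in Grhl3-cKO unwounded and 8.15 and 13.6 in Grhl3-cKO wounded libraries. All 3 libraries labelled Grhl3-cKO lay below both WT unwounded libraries, and the wounded groups overlapped. Exons of Tgfb2 overlap the antisense gene Gm29491 and those of Tgfb3 overlap Gm37804 and Gm48008 on the other strand, and the use of strand in counting is not given in the sources used here, so the counts of Tgfb2 and Tgfb3 may hold reads of those transcripts.

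The receptors varied little. Tgfbr1, the type I receptor kinase that phosphorylates SMAD2 and SMAD3, was at 38.2 and 35.5 CPM in WT unwounded, 31.5 and 44.6 in WT wounded, 33.1 in Grhl3-cKO unwounded and 46.8 and 37.3 in Grhl3-cKO wounded libraries. Tgfbr2, the type II receptor that binds the ligand first, was at 198 and 157 CPM in WT unwounded, 207 and 164 in WT wounded, 139 in Grhl3-cKO unwounded and 170.0 and 129 in Grhl3-cKO wounded libraries. For both genes the WT wounded libraries overlapped the WT unwounded and the Grhl3-cKO wounded ones, and the highest library was 1.49 times the lowest for Tgfbr1 and 1.60 times for Tgfbr2.

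Smad3, which carries the signal to the nucleus, was at 45.8 and 50.7 CPM in WT unwounded, 49.0 and 50.004 in WT wounded, 35.5 in Grhl3-cKO unwounded and 38.4 and 48.7 in Grhl3-cKO wounded libraries. The Grhl3-cKO wounded libraries were both below the WT wounded ones, replicate 2 by less than 1 CPM. Smad7, the inhibitory SMAD that blocks the receptor and draws ubiquitin ligases to it, was at 42.4 and 41.8 CPM in WT unwounded, 45.3 and 32.2 in WT wounded, 31.3 in Grhl3-cKO unwounded and 39.9 and 35.5 in Grhl3-cKO wounded libraries. Its WT wounded libraries lay on either side of the unwounded ones.

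Pmepa1, a membrane-bound inhibitor that keeps SMAD2 and SMAD3 from the receptor and is itself induced by TGF-beta, was at 41.8 and 46.9 CPM in WT unwounded, 99.3 and 130.0 in WT wounded, 51.3 in Grhl3-cKO unwounded and 87.6 and 84.9 in Grhl3-cKO wounded libraries. All 4 wounded libraries lay above all 3 unwounded ones, and both Grhl3-cKO wounded libraries lay below both WT wounded ones. The mean was 44.4 ± 3.61 CPM for WT unwounded keratinocytes, 114.7 ± 21.7 for WT wounded ones and 86.2 ± 1.90 for Grhl3-cKO wounded ones (SD, n = 2 each). Skil, which encodes SnoN, a nuclear repressor of SMAD target genes, was at 142 and 138 CPM in WT unwounded, 203 and 173 in WT wounded, 156 in Grhl3-cKO unwounded and 162 and 169 in Grhl3-cKO wounded libraries. Its wounded libraries also lay above the unwounded ones, with 162 CPM in the lowest wounded and 156 CPM in the highest unwounded library. Tgfbi, a secreted matrix protein named for its induction by TGF-beta, was at 476 and 528 CPM in WT unwounded, 618 and 853 in WT wounded, 898 in Grhl3-cKO unwounded and 827 and 698 in Grhl3-cKO wounded libraries. It was highest in the Grhl3-cKO unwounded library, so its wounded and unwounded libraries overlapped over both genotypes.

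**Figure D1:**
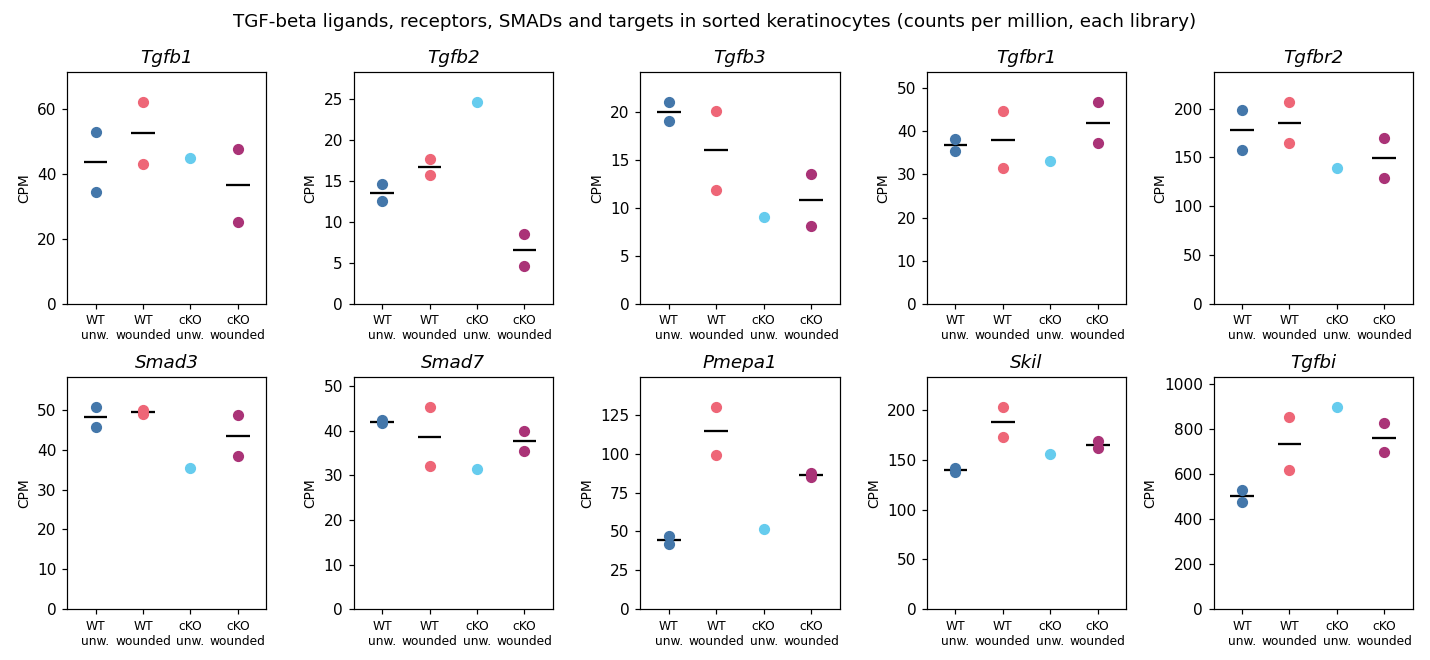
CPM of each gene in each of the 7 libraries (1 point per library, bars at the mean of groups with 2 libraries, axes from 0) by genotype and wounding. Pmepa1 lies at 84.9 CPM or above in the 4 wounded and at 51.3 or below in the 3 unwounded libraries, and Tgfb2 ranges from 4.62 CPM in a Grhl3-cKO wounded to 24.7 in the Grhl3-cKO unwounded library.

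Levels of different genes were compared per kb of exon. Tgfbi was the most abundant, at 257.8 ± 61.1 CPM per kb (SD over the 7 libraries), and its lowest library lay above the highest of any other of the 10 genes. Skil (24.3 ± 3.25), Tgfb1 (20.4 ± 5.51), Tgfbr2 (20.3 ± 3.48) and Pmepa1 (17.1 ± 7.13 CPM per kb) followed with overlapping ranges. The place of Pmepa1 differed with the group. Its mean was 9.78 CPM per kb in WT unwounded libraries, where Smad7 was at 9.61. In WT wounded libraries it was 25.3, where Tgfb1 was at 24.2 and Tgfbr2 at 22.7. Smad3 (8.92 ± 1.19), Smad7 (8.76 ± 1.23), Tgfbr1 (5.94 ± 0.887), Tgfb3 (4.35 ± 1.58) and Tgfb2 (2.71 ± 1.24 CPM per kb) came last, and each range overlapped the next in this order. Tgfb1 was thus the most abundant of the 3 ligands per kb, with a lowest library of 11.7 CPM per kb against highest libraries of 6.23 for Tgfb3 and 4.74 for Tgfb2.

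In the WT wounding contrast the counts were as follows, given as a description because the contrast was known when the genes were chosen. Of the 10 genes, 4 did not overlap between the groups and were higher in wounded libraries and 0 were lower, beside 15.2% of the 14045 genes tested that were higher without overlap and 18.3% that were lower. At an unadjusted P under 0.05, 3 were higher (Pmepa1, Skil and Tgfbi) and 0 lower, beside 3.18% and 1.67% of all genes. At an adjusted p under 0.05 in edgeR's quasi-likelihood test, Pmepa1 alone passed, beside 0.0285% of all genes (4 genes). Leaving out any single library other than WT wounded replicate 1 brought the count of these genes at that threshold from 1 to 0, and over the 7 libraries left out in turn 0 to 29 of all genes passed. The log2 fold change of Pmepa1 was 1.17 without WT wounded replicate 2 and 1.58 without replicate 1. Tgfbi was at 0.308 without WT wounded replicate 2, where it no longer reached an unadjusted P under 0.05, and Skil no longer did so without WT unwounded replicate 2 or WT wounded replicate 1 (0.338). The ligands Tgfb1 (0.29, SE 0.31), Tgfb2 (0.32, SE 0.34) and Tgfb3 (-0.30, SE 0.34) each differed by less than their SE. The median log2 fold change was 0.189 over the 10 genes and 0.00338 over all genes tested.

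Between the genotypes at the wound margin, Tgfb2 showed the widest gap of the 10 genes in the fit of all 7 libraries. Without Grhl3-cKO wounded replicate 2, Tgfb2 was at -0.909 and Tgfb3 at -0.914 on the log2 scale. Tgfb2, Pmepa1, Skil and Smad3 were lower in both Grhl3-cKO wounded libraries than in both WT wounded ones. The log2 fold change of Grhl3-cKO wounded against WT wounded was -1.31 (SE 0.35) for Tgfb2, -0.39 (SE 0.19) for Pmepa1, -0.17 (SE 0.21) for Smad3 and -0.16 (SE 0.16) for Skil. Smad3 was at -0.0284 without Grhl3-cKO wounded replicate 1 and -0.307 without replicate 2, and Skil at -0.0502 without WT wounded replicate 1 and -0.258 without replicate 2. None passed the test: the adjusted p (Benjamini-Hochberg, over 14045 genes) was 1 for each of the 10 genes in the quasi-likelihood test of edgeR. For Tgfb2 the unadjusted P was 0.00192 and for Pmepa1 it was 0.0601.

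The other 6 genes overlapped between the wounded groups. Their log2 fold changes were -0.55 (SE 0.35) for Tgfb3, -0.49 (SE 0.31) for Tgfb1, -0.28 (SE 0.20) for Tgfbr2, 0.17 (SE 0.24) for Tgfbr1, 0.08 (SE 0.18) for Tgfbi and -0.01 (SE 0.23) for Smad7. Leaving out 1 library in turn, Tgfb1 ranged from -1.06 (without Grhl3-cKO wounded replicate 1) to -0.0803 (without replicate 2), Tgfb3 from -0.914 (without Grhl3-cKO wounded replicate 2) to -0.128 (without WT wounded replicate 1) and Tgfbr2 from -0.526 (without Grhl3-cKO wounded replicate 1) to -0.0644 (without replicate 2). The signs of Tgfbr1, Tgfbi and Smad7 turned. The count of genes lower without overlap was 4 of 10, beside 17.2% of all genes, and 0 of 10 were higher, beside 13.8%. At an unadjusted P under 0.05, 1 gene was lower, Tgfb2, beside 2.08% of all genes, and 0 were higher, beside 1.96%. The median over the 10 genes was -0.225, against -0.0092 over all genes. These values share the WT wounded libraries with the contrast known when the genes were chosen.

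In this genotype contrast edgeR's quasi-likelihood test called 0 genes (0%) of 14045 at an adjusted p under 0.05, with 567 at an unadjusted P under 0.05, while DESeq2 called 3, edgeR's likelihood ratio test 1 and the quasi-likelihood test without a filter on low counts 51. The count was 1 without either WT unwounded library, 8 without WT wounded replicate 1 and 21 without WT wounded replicate 2. For Tgfb2 the log2 fold change was -1.86 without Grhl3-cKO wounded replicate 1 and -0.909 without replicate 2, and its adjusted p ranged from 0.0707 to 1 over the settings tried, the lowest with edgeR and no filter on low counts. The log2 fold change of Pmepa1 was -0.575 without WT wounded replicate 1 and -0.166 without WT wounded replicate 2. An exact permutation test of 2 libraries against 2 cannot give a p below 0.333.

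In the Grhl3-cKO wound response, which rests on the lone unwounded library and was not tested, Pmepa1 was again higher after wounding and Tgfb2 was lower. The fitted log2 fold change was 0.74 for Pmepa1, from 51.3 CPM to 87.6 and 84.9, and -1.90 for Tgfb2, from 24.7 CPM to 8.54 and 4.62. Tgfb2 was the only 1 of the 10 genes with both wounded libraries at least 2-fold from the unwounded one, beside 3.89% of all genes that were lower by this rule, and 0 of the 10 were higher, beside 5.69%. Without overlap, 5 genes were higher (Tgfbr1, Smad3, Smad7, Pmepa1 and Skil), beside 35.0% of all genes, and 2 were lower (Tgfb2 and Tgfbi), beside 33.8%. The remaining fitted values were 0.34 for Tgfbr1, 0.28 for Smad3, 0.26 for Smad7, 0.23 for Tgfb3, 0.10 for Tgfbr2, 0.08 for Skil, -0.24 for Tgfbi and -0.30 for Tgfb1. The median was 0.169, against 0.0223 over all genes.

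Tgfb2 and Tgfbi lay on opposite sides in the genotypes, with both WT wounded libraries above the WT unwounded ones and both Grhl3-cKO wounded libraries below the Grhl3-cKO unwounded one. Over all genes tested, 4.60% had this pattern without overlap and 5.98% had its reverse, which 0 of the 10 genes had. The difference between the genotypes in the wound response was not tested.

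A fit of wounding over both genotypes, with 4 wounded against 3 unwounded libraries, gave Pmepa1 a log2 fold change of 1.13 (SE 0.17), with all 4 wounded libraries above all 3 unwounded ones and an adjusted p of 0.0357 in edgeR's quasi-likelihood test. The call was lost without WT unwounded replicate 1 (log2 fold change 1.02, adjusted p 0.192 in edgeR), WT wounded replicate 2 (0.957, 0.219), Grhl3-cKO unwounded (1.40, 0.054), Grhl3-cKO wounded replicate 1 (1.16, 0.0884) or replicate 2 (1.20, 0.0772). Over every setting tried the adjusted p of Pmepa1 ran from 7.56e-09 to 0.219. This fit shares its libraries with the WT contrast, and without the Grhl3-cKO unwounded library it becomes the WT contrast, so it is not independent of the choice of genes.

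For Skil the same fit gave 0.30 (SE 0.13), with an unadjusted P of 0.0414 and an adjusted p of 0.716 in edgeR, and 0.456 without the Grhl3-cKO unwounded library. For Tgfb2 it gave -0.62 (SE 0.39), and 0.33 without the Grhl3-cKO unwounded library. The other 7 genes lay between -0.10 and 0.24, the highest being Tgfbi, which was at 0.0347 without WT wounded replicate 2 and, without the Grhl3-cKO unwounded library, at 0.583 and under an unadjusted P of 0.05. Without that library Tgfb1 was at 0.298, Tgfb3 at -0.295, Tgfbr1 at 0.0775, Tgfbr2 at 0.0875, Smad3 at 0.0676 and Smad7 at -0.0924. The 2 genes higher without overlap, Pmepa1 and Skil, stood beside 2.74% of all genes, and 0 lower beside 3.70%. At an unadjusted P under 0.05 the same 2 were higher, beside 3.69%, and 0 were lower, beside 2.93%, and the 1 gene at an adjusted p under 0.05 stood beside 0.0356% (5 genes, or 0 to 119 with 1 library left out). Skil did not reach an unadjusted P under 0.05 without WT unwounded replicate 1 or 2 or WT wounded replicate 1 or 2, nor by edgeR's likelihood ratio test or with a replicate block, while Tgfb2 did so without WT unwounded replicate 1, without WT wounded replicate 1 and with no filter on low counts. The median was 0.12, against 0.0131 over all genes.

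The genes whose log2 CPM followed that of Pmepa1 most closely over the 7 libraries, among 8885 genes with a mean log2 CPM of at least 3, were Bcar3 (Pearson r 0.986), Mtif2 (0.963), Gemin4 (0.952), Atp9b (0.943) and Sorcs2 (0.940). Bcar3, an adaptor protein of p130Cas signalling, was at 19.0 and 22.2 CPM in WT unwounded, 32.9 and 37.7 in WT wounded, 20.2 in Grhl3-cKO unwounded and 31.1 and 31.2 in Grhl3-cKO wounded libraries. Sorcs2, a sorting receptor, was at 11.5 and 17.9 CPM in WT unwounded, 33.5 and 48.6 in WT wounded, 11.4 in Grhl3-cKO unwounded and 29.0 and 21.9 in Grhl3-cKO wounded libraries. In these genes and Mtif2 the wounded libraries lay above the unwounded ones and the Grhl3-cKO wounded below the WT wounded ones. In Gemin4 (22.0 and 26.8 CPM in WT wounded, 22.5 and 21.1 in Grhl3-cKO wounded libraries) and Atp9b (77.2 and 79.9, 72.0 and 79.6) the wounded groups overlapped. A likeness to the pattern of Pmepa1 is what these 5 genes were chosen for. Among the 10 genes, Skil (r = 0.826) and Tgfbi (0.574) followed Pmepa1 most closely. These values describe 7 libraries that share their groups.

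The wider pathway was described through 7 lists: latency and activation of the ligand (13 genes), other receptors and co-receptors (9), other SMAD proteins (6), SMAD corepressors and the ubiquitin pathway (13), response genes (23), the activin arm (10, of which 8 were tested) and the BMP arm (9). No gene of these lists passed an adjusted p of 0.05 in edgeR's quasi-likelihood test in any of the 3 tested comparisons, and counts at an unadjusted P under 0.05 are given below beside the shares over all genes printed for the same contrast above. In the WT wounding contrast 8 of 23 response genes were higher and 0 lower, 3 of 13 latency genes higher and 1 lower, 2 of 9 receptors higher and 1 lower, 3 of 13 corepressors higher and 0 lower, 1 of 9 BMP genes higher and 1 lower, and 0 of 6 SMADs and 0 of 8 activin genes either way. The medians of the log2 fold change were 0.271 for the response genes, 0.141 for latency, 0.0643 for receptors, -0.121 for SMADs, 0.0897 for corepressors, 0.178 for the activin arm and -0.0965 for the BMP arm.

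Acvrl1, an endothelial type I receptor, had 29 and 22 counts in WT unwounded, 125 and 168 in WT wounded, 67 in Grhl3-cKO unwounded and 55 and 60 in Grhl3-cKO wounded libraries. Bmpr1b, a BMP type I receptor, had 11 and 0 counts in WT unwounded, 65 and 76 in WT wounded, 47 in Grhl3-cKO unwounded and 83 and 43 in Grhl3-cKO wounded libraries. Both WT unwounded libraries were the lowest for each of these genes. Acta2, the smooth muscle actin of contractile cells, had 9 and 39 counts in WT unwounded, 275 and 154 in WT wounded, 1 in Grhl3-cKO unwounded and 11 and 64 in Grhl3-cKO wounded libraries. Ltbp2, a latent TGF-beta binding protein of the matrix, was at 39.0 and 27.8 CPM in WT unwounded, 14.7 and 13.9 in WT wounded, 65.3 in Grhl3-cKO unwounded and 24.8 and 12.3 in Grhl3-cKO wounded libraries. Ltbp2 was lower in every wounded than in every unwounded library, while in the other 3 genes wounded and unwounded libraries overlapped over both genotypes. In the WT contrast the log2 fold changes were 2.55 (SE 0.54) for Acvrl1, 3.65 (SE 1.03) for Bmpr1b, 3.21 (SE 0.78) for Acta2 and -1.20 (SE 0.32) for Ltbp2, with adjusted p of 0.169, 0.545, 0.317 and 0.458 in edgeR. Bmpr1b was at 9.08 without WT unwounded replicate 1, where the lone unwounded library left had 0 counts, so that value is no measure of size. Without a filter on low counts all 4 genes passed in edgeR, Acvrl1, Bmpr1b and Acta2 also passed by its likelihood ratio test and Acvrl1 by DESeq2. Over all settings the adjusted p ranged from 0.00692 to 0.662 for Acvrl1, 0.00723 to 0.99 for Bmpr1b, 0.000168 to 0.741 for Acta2 and 0.00638 to 0.92 for Ltbp2 in edgeR and DESeq2.

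In the genotype contrast at the wound margin, 6 of 23 response genes were lower in Grhl3-cKO at an unadjusted P under 0.05 and 0 higher, with a list median of -0.377. Of the latency genes 2 were lower and 0 higher (median -0.106), of the receptors 1 was lower and 1 higher (-0.0335), and of the activin and BMP genes 1 each was lower and 0 higher (-0.0701 and -0.0272). No SMAD or corepressor passed either way (medians -0.0426 and -0.0551). Acta2, Tagln, Col1a1 and Itga5 of the response list, 4 of 23, also stand in the lists of cell type markers, and 3 of them (Acta2, Tagln and Itga5) are among the 6 counted as lower.

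Acta2 was lower in both Grhl3-cKO wounded than in both WT wounded libraries, with a log2 fold change of -2.35 (SE 0.74), -4.12 without Grhl3-cKO wounded replicate 2 and -1.56 without replicate 1. Inhbb, a subunit of activin B, was at 42.8 and 32.3 CPM in WT wounded and 15.3 and 25.9 in Grhl3-cKO wounded libraries, a log2 fold change of -0.85 (SE 0.27), or -0.539 without Grhl3-cKO wounded replicate 1. Grem1, a secreted BMP antagonist, was at 17.5 and 13.2 CPM in WT wounded and 8.15 and 6.86 in Grhl3-cKO wounded libraries (-1.01, SE 0.32). Neither gene overlapped between these groups. Itgb8, the integrin chain that releases latent TGF-beta, was at 47.7 and 35.9 CPM in WT wounded and 24.4 and 28.2 in Grhl3-cKO wounded libraries (-0.65, SE 0.23). Tnc, the matrix protein tenascin C of wound margins, was at 318 and 488 CPM in WT wounded and 287 and 156 in Grhl3-cKO wounded libraries (-0.83, SE 0.31), and was at -0.427 without Grhl3-cKO wounded replicate 2, -1.37 without replicate 1 and -0.469 without WT wounded replicate 2. For all 5 genes the Grhl3-cKO wounded libraries were the lower ones, and the adjusted p was 1 in edgeR's quasi-likelihood test. Without a filter on low counts Acta2 and Tnc passed, with adjusted p of 0.0308 and 0.00169 in edgeR, the lowest of ranges that reach 1 over all settings.

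Over both genotypes, 7 of 23 response genes were higher in wounded libraries at an unadjusted P under 0.05 and 3 lower (list median 0.205). For the other lists the counts were 1 higher and 1 lower for latency (0.134), 2 and 1 for receptors (-0.0133), 2 and 0 for corepressors (0.0371), 0 and 1 for the activin arm (-0.131), 1 and 3 for the BMP arm (-0.167) and 0 either way for SMADs (-0.159). Ltbp2 had a log2 fold change of -1.46 (SE 0.25), with an adjusted p of 0.0653 in edgeR, and -1.20 without the Grhl3-cKO unwounded library. It passed by DESeq2, by edgeR's likelihood ratio test, without a filter, without WT unwounded replicate 2 (-1.63, adjusted p 0.0133 in edgeR) and without WT wounded replicate 1 (-1.53, 0.0126), in a range of 9.33e-09 to 0.725 over all settings. It lay lower in all 4 wounded than in all 3 unwounded libraries. Bmp7 (-0.35, SE 0.13), the corepressor Tgif1 (0.32, SE 0.15) and the endosomal scaffold Zfyve16 (0.40, SE 0.19) also did not overlap, with adjusted p of 0.6, 0.738 and 0.751 in edgeR, and were at -0.455, 0.434 and 0.578 without the Grhl3-cKO unwounded library. Tgif1 was at 0.202 without WT unwounded replicate 2.

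The most abundant gene of each list was Thbs1, an activator of latent TGF-beta, at 3563 to 5645 CPM, Cd109, a co-receptor that promotes receptor turnover in keratinocytes, at 334 to 714, Smad5, a SMAD of BMP signalling, at 111 to 164, Sik1 at 476 to 1147, Junb at 668 to 1210, the activin antagonist Fst at 147 to 333 and Bmpr2 at 316 to 414 CPM. The Grhl3-cKO unwounded library was the highest of the 7 for each of these genes. Among WT libraries, Thbs1 was at 3854 and 3563 CPM before and 5612 and 4489 after wounding, without overlap. Cd109 went the other way, at 476 and 439 CPM before and 334 and 364 after wounding.

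Markers of other cell types were low but differed with the groups. Endothelial markers (12 genes, Vwf the most abundant) summed to 5.10 and 7.73 CPM in WT unwounded, 33.3 and 18.9 in WT wounded, 1.70 in Grhl3-cKO unwounded and 15.5 and 22.3 in Grhl3-cKO wounded libraries. Leukocyte markers (10 genes, Cd68 the most abundant) summed to 6.71 and 2.50, 6.67 and 13.7, 2.37, and 5.58 and 8.40 CPM in the same order, with Cd3e at 0 in every library. The endothelial sum was higher in every wounded than in every unwounded library, as Pmepa1 was, and its part in the results was not tested. Endothelial markers at 0 numbered 4 (Tie1, Egfl7, Cldn5 and Sox18) and 4 (Kdr, Tek, Emcn and Cldn5) of 12 in WT unwounded, 1 (Sox18) and 4 (Emcn, Esam, Cldn5 and Sox18) in WT wounded, 8 in Grhl3-cKO unwounded (Cdh5, Kdr, Tie1, Emcn, Esam, Egfl7, Cldn5 and Sox18) and 0 and 2 (Emcn and Sox18) in Grhl3-cKO wounded libraries.

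Fibroblast markers (8 genes, Fbln1 the most abundant) summed to 78.7 and 88.9 CPM in WT unwounded, 81.1 and 108 in WT wounded, 28.5 in Grhl3-cKO unwounded and 99.4 and 79.2 in Grhl3-cKO wounded libraries. Mural and smooth muscle markers (8 genes, Cspg4 the most abundant) summed to 132 and 125, 156 and 88.3, 156, and 75.7 and 73.3 CPM in the same order. The Grhl3-cKO unwounded library was lowest for the fibroblast list, with Dcn, Lum and Dpt at 0. Most of the mural sum was Cspg4, at 63.6 to 154 CPM, which was lowest in the Grhl3-cKO wounded libraries. The other mural genes had other orders: Acta2 (16.5 CPM) and Tagln (11.9) were highest in WT wounded replicate 1, Des was highest in the Grhl3-cKO wounded libraries (1.77 and 3.50), and Rgs5 was at 0 in 6 of 7 libraries. Melanocyte markers (6 genes, Mitf the most abundant) summed to 24.8 to 54.0 CPM. Erythroid and platelet markers (6 genes, Itga2b the most abundant) summed to 2.59 to 10.1 CPM, with Hba-a1 and Hbb-bs at 0 in every library. At an unadjusted P under 0.05, the genes higher and lower in the WT wounding contrast numbered 4 and 0 of 10 endothelial markers tested, 1 and 0 of 7 fibroblast, 2 and 0 of 6 mural, 1 and 0 of 6 leukocyte, 2 and 1 of 5 melanocyte and 0 and 0 of 2 erythroid and platelet markers. In the genotype contrast they numbered 0 and 3 of 6 mural markers and 0 either way in the other 5 lists. Over both genotypes they numbered 6 and 0, 3 and 0, 2 and 1, 2 and 0, 1 and 1, and 1 and 0 in the order of the first contrast. Over all genes tested, 3.18% were higher and 1.67% lower in the WT wounding contrast. The shares were 1.96% and 2.08% in the genotype contrast and 3.69% and 2.93% over both genotypes. No marker of these cell types passed an adjusted p of 0.05 in edgeR's quasi-likelihood test in these contrasts. The part of these cells in the results was not tested.

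The keratinocyte lists moved with the groups as well. Wound keratinocyte markers (6 genes, Krt16 the most abundant) summed to 4521 and 5703 CPM in WT unwounded, 6596 and 9896 in WT wounded, 2665 in Grhl3-cKO unwounded and 7209 and 4958 in Grhl3-cKO wounded libraries. Suprabasal markers (6 genes, Krt1 the most abundant) summed to 5843 and 6519, 3345 and 4964, 8775, and 6196 and 7808 CPM in the same order. Hair follicle markers (6 genes, Krt15 the most abundant) summed to 5751 and 5105, 4485 and 3605, 6659, and 3638 and 4495 CPM. The suprabasal sum was lowest in WT wounded, and the hair follicle sum was lower in every wounded than in every unwounded library. At an unadjusted P under 0.05 in the genotype contrast, 3 of 6 suprabasal markers were higher in Grhl3-cKO wounded libraries and 0 lower, and 2 of 6 wound markers were lower and 0 higher, with none at an adjusted p under 0.05 in edgeR. In the WT wounding contrast 3 suprabasal and 4 hair follicle markers were lower and 4 wound markers higher by the same threshold, and over both genotypes 3 and 5 were lower and 5 higher. Basal markers (6 genes, Krt14 the most abundant) had 0 of 6 either way in each of the 3 tested contrasts. Over all genes, 1.96% were higher and 2.08% lower in the genotype contrast. The shares were 3.18% and 1.67% in the WT wounding contrast and 3.69% and 2.93% over both genotypes. Whether the mix of keratinocytes had a part in the levels of the 10 genes was not tested.

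Open chromatin was read from the broad peak lists, in mm10 coordinates, with 1 pooled library per condition and therefore no test. The lists held 10769 peaks in WT unwounded, 36872 in WT wounded, 29364 in Grhl3-cKO unwounded and 22474 in Grhl3-cKO wounded keratinocytes. In or within 5 kb of the 10 genes lay 11, 40, 29 and 21 of them in that order, 0.102%, 0.108%, 0.0988% and 0.0934% of each list. A peak was found for 7 of the 10 genes in WT unwounded, beside 50.7% of the 13533 expressed genes with a position, for 10 in WT wounded, beside 84.6%, for 10 in Grhl3-cKO unwounded, beside 81.0%, and for 9 in Grhl3-cKO wounded, beside 68.7%. The 10 genes are long, with a median span of 41058 bases against 23462 for expressed genes. Of the 7848 expressed genes at least as long as the shortest of the 10, 57.9%, 90.3%, 87.1% and 76.8% had a peak, in the same order. Per 100 kb the 10 genes had 1.76, 6.39, 4.64 and 3.36 peaks, against 1.04, 2.95, 2.47 and 1.87 for expressed genes. With each list shortened to its 10769 strongest peaks, 9 peaks near the 10 genes were left in WT wounded, 10 in Grhl3-cKO unwounded and 9 in Grhl3-cKO wounded keratinocytes, against 11 in WT unwounded.

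The genes lie at chr7:25687002-25705077 (Tgfb1), chr1:186622792-186705989 (Tgfb2), chr12:86056745-86079041 (Tgfb3), chr4:47353222-47414931 (Tgfbr1), chr9:116084293-116175360 (Tgfbr2), chr9:63646767-63757994 (Smad3), chr18:75367529-75395935 (Smad7), chr2:173224458-173276533 (Pmepa1), chr3:31095058-31122577 (Skil) and chr13:56609523-56639562 (Tgfbi). Merged over the 4 lists, the peaks made 45 regions, of which 27 lay in introns, 8 upstream, 2 downstream, 2 in exons and 6 over a gene start, for Tgfb2, Tgfb3, Tgfbr1, Tgfbr2, Pmepa1 and Skil. All 4 lists shared 9 regions, and 17 were in a single list, 13 of them in that of WT wounded, which is the longest list.

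Pmepa1, on the minus strand, had 3 peaks in WT unwounded, 8 in WT wounded, 6 in Grhl3-cKO unwounded and 7 in Grhl3-cKO wounded keratinocytes. With the lists shortened to equal length it had 3, 4, 3 and 2 in that order, and at a fold enrichment of at least 4 it had 2, 4, 3 and 1. The full lists made 9 regions, of which 3, all intronic, were in all 4 lists. The strongest was an intronic region 43655 to 43872 bases downstream of the gene start, with a fold enrichment over local background of 5.62 in WT unwounded, 6.25 in WT wounded, 6.34 in Grhl3-cKO unwounded and 5.59 in Grhl3-cKO wounded keratinocytes. The region over the gene start, chr2:173276300-173276725, was in every list but that of WT unwounded, at fold enrichments of 4.53 in WT wounded, 4.16 in Grhl3-cKO unwounded and 3.79 in Grhl3-cKO wounded keratinocytes. In WT wounded this peak also covered the start of the neighbouring transcript Pmepa1os. The 2 upstream regions were each in 1 list, chr2:173281473-173281851 in WT wounded and chr2:173280960-173281243 in Grhl3-cKO wounded keratinocytes.

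**Figure D2:**
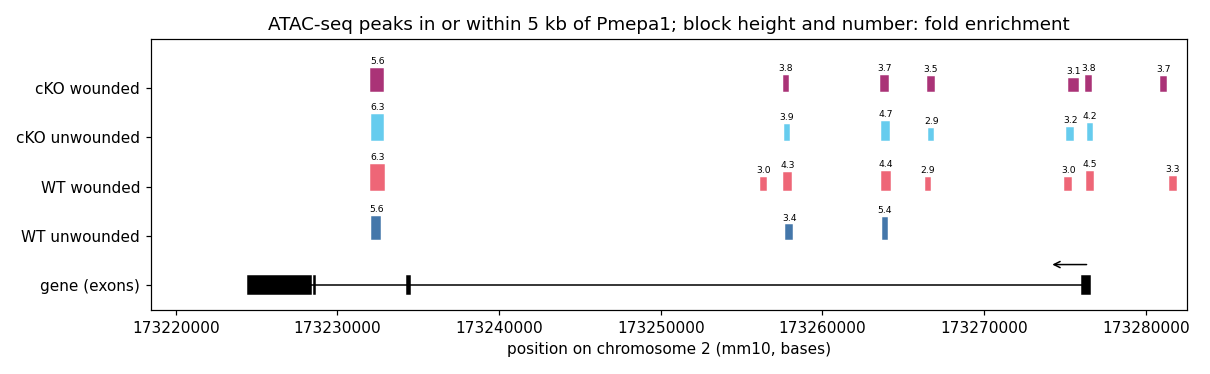
Map of Pmepa1 on chromosome 2 (mm10) with its exons, an arrow at the gene start and the peaks of the 4 ATAC-seq lists within 5 kb (block height and number, fold enrichment). The lists hold 3 peaks in WT unwounded, 8 in WT wounded, 6 in Grhl3-cKO (cKO) unwounded and 7 in Grhl3-cKO wounded keratinocytes.

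Tgfb2, also on the minus strand, had 1 peak in each list but that of WT wounded, which had 5. The region near its start was in all 4 lists, at fold enrichments of 4.38 in WT unwounded, 3.47 in WT wounded, 4.88 in Grhl3-cKO unwounded and 4.68 in Grhl3-cKO wounded keratinocytes. In WT wounded the peak covered the start itself, and in the other lists it ended 419 to 482 bases inside the gene, in an exon. The WT wounded peak also covered the start of the antisense gene Gm29491. The other 4 regions were intronic, lay 29525 to 70684 bases from the start and were in the WT wounded list alone, at fold enrichments of 3.09, 3.42, 3.44 and 4.50. With the lists shortened to equal length the WT wounded list held 0 peaks near Tgfb2 and each of the other lists held 1.

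**Figure D3:**
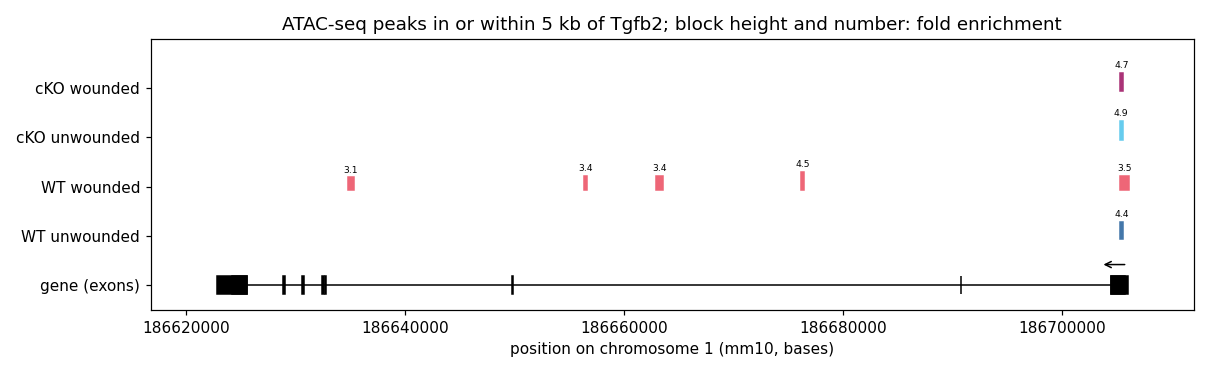
Map of Tgfb2 on chromosome 1 (mm10) with its exons, an arrow at the gene start and the peaks of the 4 ATAC-seq lists within 5 kb (block height and number, fold enrichment). A peak near the start is in all 4 lists, and 4 intronic peaks at fold enrichments of 3.09 to 4.50 are in the WT wounded list alone.

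Among the other ligands, Tgfb1 had 4 peaks in the WT wounded list, 2 in each Grhl3-cKO list and 0 in that of WT unwounded, and Tgfb3 had 0, 2, 2 and 0 in the order WT unwounded, WT wounded, Grhl3-cKO unwounded and Grhl3-cKO wounded. Tgfbr1 had 2 peaks in every list, over its start and in an intron at chr4:47407090-47407674, with fold enrichments in the intron of 4.70, 6.31, 6.03 and 5.17 in that order. Tgfbr2 had 1, 4, 3 and 3 peaks, with the highest fold enrichment near any of the 10 genes, 7.50 in WT wounded, in an intron, where the other lists had 4.75, 4.66 and 5.26. Receptor genes thus kept at least 1 shared region in all 4 lists. Smad3 had 2, 8, 6 and 2 peaks, all but 1 in introns, and Smad7 had 1, 3, 3 and 1. Skil had 1 peak in every list, of 350 bases and ending 72 bases before the gene start in WT unwounded, and of 1377, 1164 and 1346 bases and covering the start in the others. Tgfbi, the gene with the highest level per kb, had 0 peaks in WT unwounded and 3, 3 and 2 in the others.

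Short motifs were searched on both strands in 300-base windows centred on the 40 WT wounded peaks near the 10 genes. Where a peak is shorter than 300 bases, the window runs past its ends. The motifs were AACNNGTT, the core bound by GRHL factors, TGANTCA, the AP-1 motif, and GTCTAGAC and CAGACA, forms of the SMAD binding element. TGANTCA was in 19 of the 40 windows (47.5%), against 27.7% of 36870 windows over the whole WT wounded list. CAGACA was in 17 (42.5%), against 25.1%, AACNNGTT in 2 (5%), against 6.55%, and GTCTAGAC in 1 (2.5%), against 0.32%. The 8 windows near Pmepa1 held TGANTCA in 4, CAGACA in 5 and AACNNGTT and GTCTAGAC in 0. These are counts of letters in 40 windows, and no test was made.

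Promoters of RefSeq genes, from 250 bases before to 50 after the start in GRCm38.p6, were found for 6 of the 10 genes, with 7 promoters in all. Those not matched were Tgfb3, Smad7, Pmepa1 and Skil. CAGACA was in 2 of the 7, those of Tgfb2 and the second of Tgfbr1, and the other motifs in 0, against shares in 32851 promoters of 21% for CAGACA, 7.81% for TGANTCA, 4.2% for AACNNGTT and 0.213% for GTCTAGAC.

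The sequences below are from the RefSeq genome GRCm38.p6, 5′ to 3′. They are shown because they hold the promoter of Tgfb2, which had the widest genotype gap in the fit of all 7 libraries. They also hold the only 2 windows with AACNNGTT and the only window with GTCTAGAC. Matches to the motifs on either strand are in capitals. The Tgfb2 promoter is on the minus strand, at chr1:186705940-186706239, and overlaps the WT wounded peak alone, up to 186706075, since the peaks of the other 3 lists end inside the gene. The other windows are given on the plus strand. The Tgfbr1 window, chr4:47407232-47407531, is intronic and its region was in all 4 lists, and in it TGACTCA and CAGACA overlap and share letters. The WT unwounded peak starts at 47407328, past the first match to CAGACA. The Tgfbr2 window, chr9:116175455-116175754, lies just upstream of the gene, in a region over its start where WT wounded and Grhl3-cKO unwounded had 1 peak each. The Grhl3-cKO wounded list had 2 peaks there, and the match to AACNNGTT lies in the gap between them. The Tgfbi window, chr13:56613589-56613888, is intronic and its region was in both wounded lists. The WT wounded peak ends at 56613832, inside the match to GTCTAGAC, and the match to CAGACA lies past that end.
Tgfb2 promoter: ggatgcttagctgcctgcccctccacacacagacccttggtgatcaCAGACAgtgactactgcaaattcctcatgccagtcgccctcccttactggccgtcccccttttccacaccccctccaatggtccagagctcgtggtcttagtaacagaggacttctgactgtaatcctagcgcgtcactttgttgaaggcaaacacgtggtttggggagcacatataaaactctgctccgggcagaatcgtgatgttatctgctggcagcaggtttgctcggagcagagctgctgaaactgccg
Tgfbr1 intron window: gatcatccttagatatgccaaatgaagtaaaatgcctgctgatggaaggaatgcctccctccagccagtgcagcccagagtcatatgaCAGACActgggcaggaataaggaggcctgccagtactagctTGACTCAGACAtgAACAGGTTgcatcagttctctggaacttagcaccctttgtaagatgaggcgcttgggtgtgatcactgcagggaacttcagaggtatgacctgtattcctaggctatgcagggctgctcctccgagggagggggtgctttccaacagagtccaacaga
Tgfbr2 window at the gene start: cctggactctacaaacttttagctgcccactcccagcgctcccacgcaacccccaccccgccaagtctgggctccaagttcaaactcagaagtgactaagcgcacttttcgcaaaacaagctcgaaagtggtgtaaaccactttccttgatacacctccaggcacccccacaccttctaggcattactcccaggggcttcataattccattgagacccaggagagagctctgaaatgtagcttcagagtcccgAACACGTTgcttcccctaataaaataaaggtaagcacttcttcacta
Tgfbi intron window: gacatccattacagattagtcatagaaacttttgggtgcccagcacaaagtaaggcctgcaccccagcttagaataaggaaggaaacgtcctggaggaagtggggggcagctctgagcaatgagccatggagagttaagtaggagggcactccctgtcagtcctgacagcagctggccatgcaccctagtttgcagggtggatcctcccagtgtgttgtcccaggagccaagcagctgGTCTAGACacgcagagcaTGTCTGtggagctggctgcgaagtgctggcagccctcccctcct

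For Pmepa1, the gene with the widest difference of the 10 in the WT wounding contrast, windows of 3 intronic regions are shown on the plus strand, out of the 5 windows near the gene that hold CAGACA. Window A holds CAGACA alone, and windows B and C hold both TGANTCA and CAGACA, as does the window at chr2:173275060-173275359, which is not shown. Capitals mark TGANTCA and CAGACA on either strand. The windows chr2:173257699-173257998 and chr2:173263798-173264097 lie in regions found in all 4 lists. The window chr2:173266379-173266678, with 3 matches to TGANTCA and 2 to CAGACA, lies in a region found in every list but that of WT unwounded, at fold enrichments of 2.88 in WT wounded, 2.93 in Grhl3-cKO unwounded and 3.54 in Grhl3-cKO wounded keratinocytes. The Grhl3-cKO unwounded peak starts at 173266618 and holds only the last match to TGANTCA. The Grhl3-cKO wounded peak starts at 173266525, past the first match to TGANTCA and inside the first to CAGACA.
Pmepa1 intron window A: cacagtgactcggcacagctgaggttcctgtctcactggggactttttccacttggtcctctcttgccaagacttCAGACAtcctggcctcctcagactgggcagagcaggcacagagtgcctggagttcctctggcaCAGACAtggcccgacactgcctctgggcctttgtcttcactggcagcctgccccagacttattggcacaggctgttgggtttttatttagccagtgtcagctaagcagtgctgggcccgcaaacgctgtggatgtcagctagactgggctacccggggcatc
Pmepa1 intron window B: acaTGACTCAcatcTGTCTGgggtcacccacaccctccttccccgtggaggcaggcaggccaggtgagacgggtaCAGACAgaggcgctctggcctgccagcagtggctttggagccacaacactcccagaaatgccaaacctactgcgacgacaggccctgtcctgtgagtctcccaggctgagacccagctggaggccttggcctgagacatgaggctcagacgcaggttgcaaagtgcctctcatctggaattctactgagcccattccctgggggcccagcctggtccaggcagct
Pmepa1 intron window C: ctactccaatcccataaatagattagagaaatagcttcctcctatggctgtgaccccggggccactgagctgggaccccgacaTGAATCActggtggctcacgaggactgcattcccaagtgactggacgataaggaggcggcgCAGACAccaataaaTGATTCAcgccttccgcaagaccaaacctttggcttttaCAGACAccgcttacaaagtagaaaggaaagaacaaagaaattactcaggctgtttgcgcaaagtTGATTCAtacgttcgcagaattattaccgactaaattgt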

How the data were processed

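Each deposited RNA file lists read counts by gene symbol in whole numbers, not normalised by the authors; their notes name FastQC, Kallisto, edgeR and mm10, and which tool wrote the counts is not given in the sources used here. Reads not uniquely placed made up 3.46% to 4.75% of all reads each file tallies, and the rows for reads given to no gene were left out. The authors trimmed ATAC-seq reads with Trimmomatic, aligned them to mm10 with bowtie2 and called broad peaks with MACS2. The deposited peak lists give a score (10 times the −log10 q, unused here). They also give the fold enrichment over the local background of the same library, as the authors' peak caller wrote it. The deposited −log10 p and −log10 q values of each peak were used only to shorten or filter lists.

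Counts were normalised by TMM, filtered by filterByExpr (14045 of 24421 genes kept) and tested in 1 edgeR quasi-likelihood fit of 7 libraries in 4 groups, two-sided, with p-values adjusted by Benjamini and Hochberg's method over the genes kept. The common biological coefficient of variation was 31.59%. A model of genotype plus wounding gave the comparison over both genotypes. The Grhl3-cKO wound response had 1 unwounded library, so genes were counted where both wounded libraries differed from it at least 2-fold (log2 CPM, prior count of 2). Peaks were assigned to a gene when they touched its span (GENCODE vM21 annotation) or the 5 kb on either side.

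The 10 genes, the pathway lists and the marker lists were chosen with earlier results of these data known. Named beside the 10 genes were the gene of each list with the highest mean CPM, up to 6 list genes per comparison with an unadjusted P under 0.05 and no overlap, by smallest P, control genes, and the 5 genes most like Pmepa1.

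The alternatives were RLE size factors, DESeq2, edgeR's likelihood ratio test, a replicate block, leaving out each library, fitting the compared groups alone, no filter on low counts, a minimum of 10 counts per library, prior counts of 0.5 and 5, 1.5-fold, and stricter, shorter, wider or narrower peak lists. Tests ran in DESeq2 1.42.0 and edgeR 4.0.16 with limma 3.58.1 under R 4.3.3. Peaks, motifs and plots were handled with samtools 1.23.1, pysam 0.24.0, matplotlib 3.10.9, pandas 2.3.3 and numpy 2.4.6 under Python 3.11.15.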

Additional observations from a re-analysis of the deposited data

Results flagged for a closer look

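For Tgfb2 the wound response in Grhl3-cKO minus that in WT was -2.226 on the log2 scale, with both WT wounded libraries above the WT unwounded ones and both Grhl3-cKO wounded libraries below the Grhl3-cKO unwounded one. For Tgfbi the same difference was -0.8189, with the same sides. The difference was not tested for either gene, and it rests on the 1 unwounded Grhl3-cKO library, which differs from the other 6 in its Xist and Y-linked counts.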

How the results depend on the processing

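Of the 10 genes, the number at an adjusted p under 0.05 in the WT wounding contrast was 0 with at least 10 counts in every library or with only the libraries compared, and 0 to 1 leaving out 1 library. Over both genotypes it was 0 with at least 10 counts in every library and 0 to 1 leaving out 1 library. The number at an unadjusted P under 0.05 in edgeR between genotypes in wounded skin was 2 without a filter, beside 776 of 16280 genes. Over both genotypes it was 1 with the likelihood ratio test, beside 1182 of 14045 genes, and 1 with the replicate block, beside 888. Leaving out 1 library, it was 1 to 3 over both genotypes, beside 656 to 1245 of all genes. With 1.5-fold in place of 2-fold, 2 of the 10 genes met the rule for the Grhl3-cKO wound response, beside 2603 of 14045 genes. The causes of these differences were not tested.

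The sign turned for Smad7 over both genotypes with the replicate block (-0.0266). Leaving out 1 library, signs turned in the genotype contrast for Tgfbr1 (-0.0648 to 0.459), Smad7 (-0.223 to 0.25) and Tgfbi (-0.141 to 0.345), and over both genotypes for Tgfb1 (-0.153 to 0.298), Tgfb2 (-0.947 to 0.328), Tgfb3 (-0.295 to 0.121) and Smad7 (-0.0924 to 0.187). The cause was not tested. In the WT wounding contrast they turned for Tgfb1 (-0.0128 to 0.652), Tgfb3 (-0.72 to 0.0126), Tgfbr1 (-0.219 to 0.306), Tgfbr2 (-0.0854 to 0.272) and Smad7 (-0.36 to 0.113). No other log2 fold change of the 10 genes in these 3 contrasts turned.

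At a q of at most 0.01, WT unwounded had 7 peaks near the 10 genes and Grhl3-cKO unwounded 17. At a fold enrichment of at least 4 the lists held 7 (WT unwounded), 14 (WT wounded), 12 (Grhl3-cKO unwounded) and 11 (Grhl3-cKO wounded), with 6 genes having a peak in WT wounded and 6 in Grhl3-cKO unwounded. With lists of equal length there were 9 peaks at 5 genes in WT wounded, 10 at 6 genes in Grhl3-cKO unwounded and 9 in Grhl3-cKO wounded, where fewer peaks are kept by construction. The share of expressed genes with a peak was not computed for these stricter or shortened lists.

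Over all genes, the number at an adjusted p under 0.05 in the WT contrast was 4, and 24 with DESeq2, 49 with the likelihood ratio test, 96 without a filter and 0 with at least 10 counts in every library. Over both genotypes it was 5, and 126, 117, 305 and 2. The 2-fold rule took 1346 genes, 2567 without Grhl3-cKO wounded replicate 1 and 2732 without replicate 2, where a single library has to pass. Libraries that share a replicate number correlated, in their deviations from the group, at r = 0.154 for WT unwounded with WT wounded. The value was -0.0386 for WT wounded with Grhl3-cKO wounded and -0.0109 for WT unwounded with Grhl3-cKO wounded. The labels do not say whether WT libraries of the same number came from the same mouse. The main fit takes no account of such a pairing. The block also uses the replicate number of the Grhl3-cKO unwounded library, on which its labels disagree. Where leaving out a library left a group with 1, that library was assumed to vary like the others. With 2 libraries a group and 1 ATAC-seq library a condition, small differences cannot be seen. The floor of 3 counts covers counting error only.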

Other observations

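Markers of keratinocyte states, named here after their values were seen, also differed between groups. Krt10, a keratin of suprabasal cells, was at 2469 and 2336 CPM in WT unwounded, 1469 and 1986 in WT wounded, 4259 in Grhl3-cKO unwounded and 2739 and 3520 in Grhl3-cKO wounded libraries. Both Grhl3-cKO wounded libraries lay above both WT wounded ones, a log2 fold change of 0.87 (SE 0.16) with an adjusted p of 0.459 in edgeR. Of the 6 suprabasal markers, 5 were higher without overlap in this contrast, beside 13.8% of all genes, and Ivl overlapped (-0.16, SE 0.26). Krt17, a keratin of wound margins and hair follicles, was at 2101 and 1641 CPM in WT unwounded, 2326 and 1816 in WT wounded, 943 in Grhl3-cKO unwounded and 1096 and 1401 in Grhl3-cKO wounded libraries. All 3 libraries labelled Grhl3-cKO lay below all 4 WT libraries, with a log2 fold change between the wounded groups of -0.71 (SE 0.17, adjusted p 0.783 in edgeR). Of the 6 wound markers, 2 were lower without overlap between the wounded groups, Krt17 and Itga5, beside 17.2% of all genes. Krt6a (-0.51, SE 0.45), Krt6b (-0.44, SE 0.64), Krt16 (-0.18, SE 0.18) and Sprr1b (0.10, SE 0.42) overlapped.

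Krt15, a keratin of hair follicle stem cells, was at 2881 and 2751 CPM in WT unwounded, 2189 and 2010 in WT wounded, 4746 in Grhl3-cKO unwounded and 2270 and 2517 in Grhl3-cKO wounded libraries. Lhx2, a transcription factor of the same cells, was at 85.3 and 74.5, 54.5 and 31.6, 65.9, and 30.7 and 38.7 CPM in that order. Both genes were lower in all 4 wounded than in all 3 unwounded libraries. Their log2 fold changes over both genotypes were -0.64 (SE 0.13) and -0.90 (SE 0.18), with an adjusted p of 0.11 each in edgeR. Neither passed the threshold of 0.05. In the WT wounding contrast, without the Grhl3-cKO unwounded library that was highest for Krt15, they were -0.40 (SE 0.13) for Krt15 and -0.87 (SE 0.24) for Lhx2. Of the 6 hair follicle markers, 4 were lower without overlap over both genotypes, beside 3.70% of all genes. Krt79 (-0.22, SE 0.20) and Sox9 (-0.37, SE 0.15) overlapped.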
